A study of Mus musculus with 11 samples.

Results

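The regions described here are the 67 accessible regions around 4 genes that mark the passage of mouse embryonic stem cells out of the naive state, Fgf5, Otx2, Pou3f1 and Lef1. The genes were chosen with earlier results of these data known. Around them, regions were chosen by position, as the rows of the deposited table that start inside a window at each gene, and make up 67 of the 248336 regions. The Fgf5 window (100 kb) holds 11, the Otx2 window (90 kb) 15, the Pou3f1 window (40 kb) 9 and the Lef1 window (150 kb) 32. The assay was ATAC-seq: the transposase Tn5 inserts adapters into open chromatin, and the tagged ends are sequenced, here from 100000 cells per library. The 11 libraries come from 4 embryonic stem cell lines. B6 is the line B6 5-1 of strain C57BL/6J (3 libraries), and D2 is the line D2 5-5 of strain DBA/2J (3 libraries). B6-13D2 is the line QJ 6-1 of the congenic strain B6.D2-(rs30079041-rs51756099)/Bakr, which carries a DBA/2J interval of chromosome 13 on the C57BL/6J background (2 libraries). D2-13B6 is the line XE 2-4, which carries a C57BL/6J interval of chromosome 13 on the DBA/2J background (3 libraries); its sample label and the series text give different distal markers, so the extent of its interval is not settled here. All lines grew in 15% serum with LIF, 1 µM PD0325901, which inhibits MEK, and 3 µM CHIR99021, which inhibits GSK3. The labels call the libraries technical replicates and give 1 line per genotype, so each error and p-value reflects only how far libraries of the same line differ, and genotype and line cannot be told apart. None of the 4 genes lies on chromosome 13, so that by their strain names D2 and D2-13B6 share the DBA/2J background at these loci, and B6 and B6-13D2 the C57BL/6J background.

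Naive embryonic stem cells correspond to the cells of the preimplantation epiblast. On leaving that state they pass through a formative state, in which Otx2 and Pou3f1 (also called Oct6) are transcription factors that direct OCT4 to new enhancers, and Fgf5, a secreted growth factor, is the usual marker gene; the primed state follows. Lef1 is a DNA-binding partner of beta-catenin in WNT signalling, a pathway that GSK3 holds in check. MEK and GSK3 inhibitors are used together to hold cells in the naive state. RNA was not analysed here, so the values below are accessibility, not expression. In a bulk library, a region open in fewer cells and a region less open in each cell cannot be told apart.

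One distal region at each locus is printed because it had the smallest p-value outside promoters in the comparison of D2-13B6 with B6. Each line gives 300 bases of the plus strand of GRCm38 (mm10) at the centre of the region. The windows at Otx2 and Pou3f1 reach a few bases past the region at both ends. Capitals mark matches to any of 6 short motifs, searched on both strands: the octamer ATGCAAAT, the SOX motif CATTGTT, the OTX motif TAATCC, the TCF/LEF motif ATCAAAG, an ESRRB-type motif TGACCTTG and the KLF motif GGGTGTGG. No promoter window is printed, since those of Fgf5 and Lef1 hold UTR sequence.
Fgf5, chr5:98290629-98290928: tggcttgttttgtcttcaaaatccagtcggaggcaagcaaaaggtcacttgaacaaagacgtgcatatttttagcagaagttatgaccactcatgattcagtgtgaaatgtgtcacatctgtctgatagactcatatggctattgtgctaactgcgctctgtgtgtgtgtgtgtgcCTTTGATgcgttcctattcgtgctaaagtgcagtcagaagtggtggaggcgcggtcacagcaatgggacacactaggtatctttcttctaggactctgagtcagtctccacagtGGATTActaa
Otx2, chr14:48679652-48679951: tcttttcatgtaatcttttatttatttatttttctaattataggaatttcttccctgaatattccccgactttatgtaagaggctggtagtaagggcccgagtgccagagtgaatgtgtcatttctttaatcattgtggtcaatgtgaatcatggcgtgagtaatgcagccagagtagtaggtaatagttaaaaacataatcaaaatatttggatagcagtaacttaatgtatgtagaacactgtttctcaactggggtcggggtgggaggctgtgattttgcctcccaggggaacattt
Pou3f1, chr4:124664606-124664905: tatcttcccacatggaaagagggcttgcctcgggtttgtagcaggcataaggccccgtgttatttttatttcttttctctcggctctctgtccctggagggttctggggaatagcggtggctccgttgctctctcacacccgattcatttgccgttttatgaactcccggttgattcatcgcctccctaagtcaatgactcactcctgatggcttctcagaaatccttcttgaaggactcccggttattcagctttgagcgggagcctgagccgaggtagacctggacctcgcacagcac
Lef1, chr3:131101831-131102130: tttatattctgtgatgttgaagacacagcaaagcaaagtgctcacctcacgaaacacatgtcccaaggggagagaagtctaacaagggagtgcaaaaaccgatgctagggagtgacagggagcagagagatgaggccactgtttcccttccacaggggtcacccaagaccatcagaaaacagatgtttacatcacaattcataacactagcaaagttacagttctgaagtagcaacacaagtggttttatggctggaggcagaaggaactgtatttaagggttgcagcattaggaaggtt

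The Fgf5 window holds a TCF/LEF match starting at base 177 and an OTX match starting at base 291, both on the minus strand, and the other windows printed hold no match to the 6 motifs. Over the central 300 bases of all 248336 regions, the TCF/LEF motif occurred in 5.26% and the OTX motif in 9.74%. Among the 67 regions here, 4 had a TCF/LEF match, 9 an OTX match, 4 a KLF match, 3 a SOX match, 1 an octamer and 1 an ESRRB-type match. For the last 4 motifs, the shares over all regions were 5.87%, 5.67%, 3.23% and 3.39%. A match is a description of the letters and not a bound site.

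Library totals were 15198496 to 43042955 counts, of which 5627 to 13462 fell in the 67 regions. All 67 passed the filter on low counts, and the lowest value of any of them in any library was 4 counts. Values are normalised CPM, in which each count is divided by its library's total after TMM scaling. A region is called different when edgeR's quasi-likelihood test over 246840 regions gave it an adjusted p-value under 0.05. The 67 regions had a median width of 733 bp against 547 bp over all regions, and 12 were promoter regions, at most 1000 bp from an annotated start of transcription. Scaling by total counts in place of TMM shifted the median over all regions, in log2 fold change, by -0.29 for D2-13B6 against B6, by -0.13 for D2 against B6, by 0.17 for D2 against D2-13B6, by -0.13 for D2 against B6-13D2 and by -0.17 for the interaction. Among all called regions it took the share that was higher from 51.9% to 32.5%, from 60.9% to 46.8%, from 35.9% to 57.4%, from 61.6% to 48.9% and from 69.5% to 38.9%, in the same order. RLE size factors took it to 26.2% for D2 against D2-13B6 and 80.5% for the interaction. Changes below are relative to the TMM scale.

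Among the 67 regions, calls were most frequent in D2-13B6 against B6, and B6-13D2 against B6 had none. In D2-13B6 against B6, 35 of 67 regions were called (52.2%), 9 higher and 26 lower in D2-13B6. Over all regions, 41.7% were called in this comparison, 21.6% higher and 20.1% lower. The median log2 fold change was -0.33 over the 67 and -0.13 over all regions. Among the 67, total counts gave 6 higher and 37 lower, and RLE size factors 10 higher and 21 lower. In D2 against D2-13B6, 21 were called, 14 higher and 7 lower in D2, where the share over all regions was 23.7% (8.53% higher, 15.2% lower). The median here was 0.27, against 0.04 over all regions. Total counts gave 19 higher and 6 lower, and RLE size factors 10 higher and 7 lower. The comparisons share libraries, and each is given by its own values.

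Between the inbred strains, D2 against B6 called 11 of the 67, 5 higher and 6 lower in D2, against 22.5% over all regions (13.7% higher, 8.8% lower). With total counts, 3 were higher and 13 lower. D2 against B6-13D2 called 7, 4 higher and 3 lower, against 18.8% of all regions (11.6% higher, 7.24% lower), and total counts gave 4 higher and 5 lower. B6-13D2 against B6 called none of the 67 by edgeR or DESeq2, where 0.474% of all regions were called. In simulated data with 200 of 245941 regions changed, this comparison recovered 0% of 1.5-fold and 23.5% of 2-fold changes. D2 against B6 recovered 1.67% and 47.1%. More regions were called in these data than were changed there, so adjusted p-values differ and these shares need not hold here. With 2 B6-13D2 libraries, a lack of calls in B6-13D2 against B6 does not show a lack of change. In B6-13D2 against B6, 4 regions had an unadjusted edgeR p-value under 0.05, all in the Lef1 window. The smallest adjusted p among them was 0.508. The mean of D2 lay between those of B6 and D2-13B6 in 42 of the 67 regions (62.7%), against 56.5% of all regions.

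**Figure D1:**
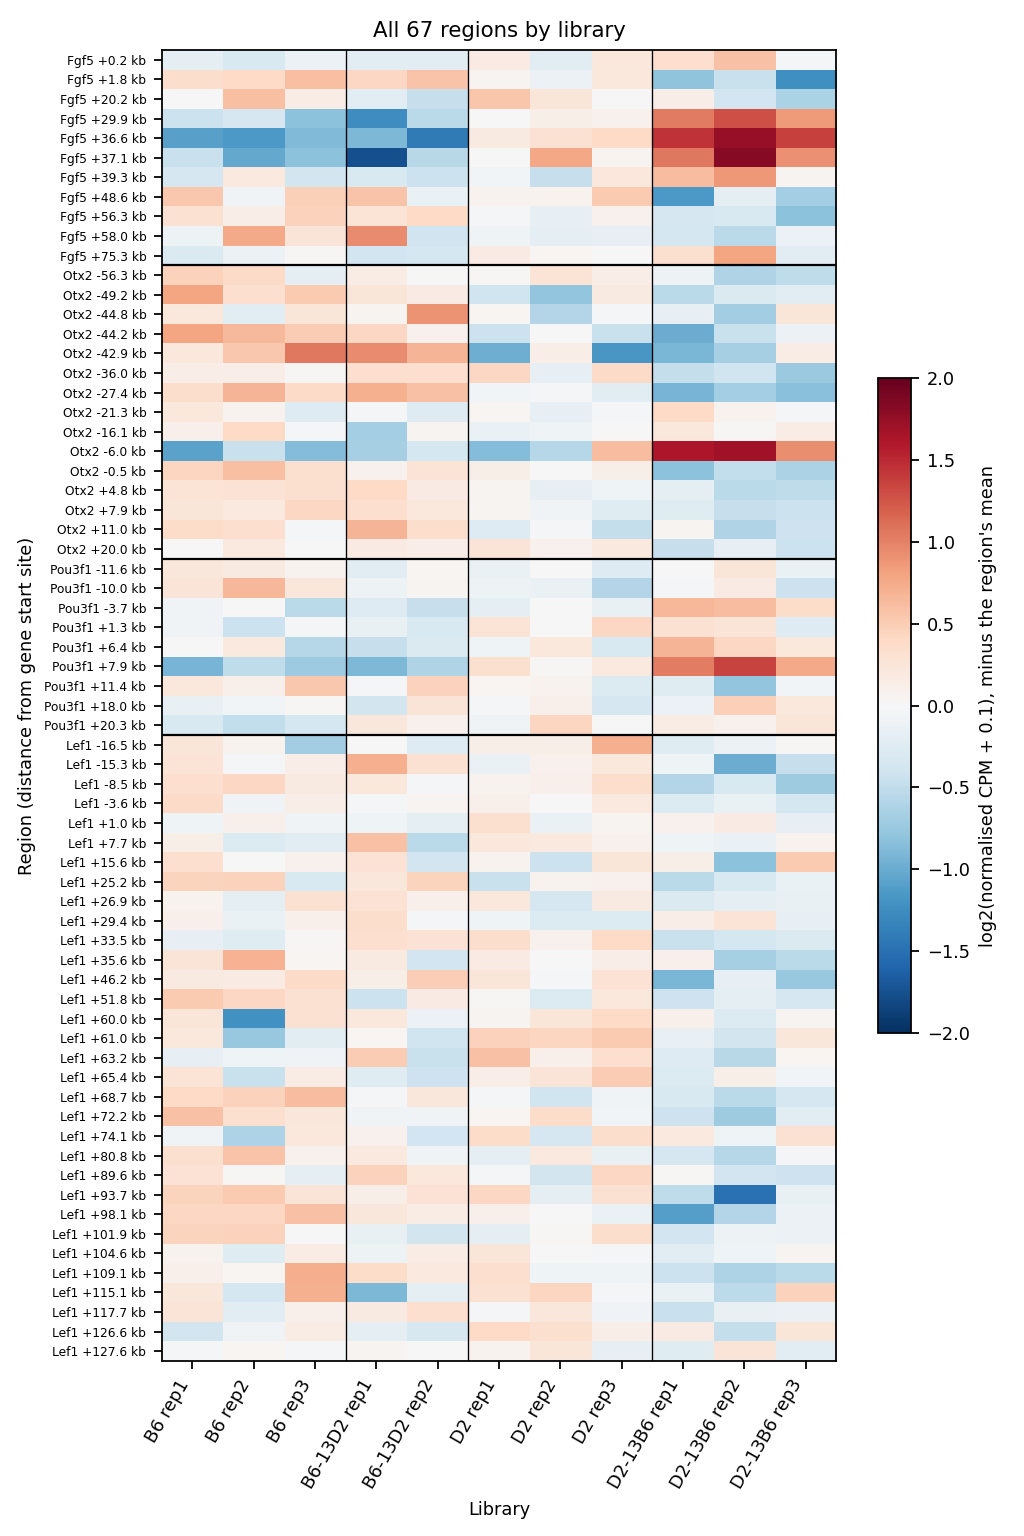
Heat map of the 67 regions (rows, grouped by window and ordered by distance from the gene's start site in kb) in the 11 libraries (columns). Colour is log2(normalised CPM + 0.1) minus the region's mean over libraries, limited at 2 in both directions. The 3 D2-13B6 columns stand apart, with a group of high regions downstream of Fgf5 and low values through most of the Otx2 window.

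Fgf5 (ENSMUSG00000029337.2) lies on chromosome 5 from 98254184 to 98277030, on the plus strand. Its window held the region with the largest increase of the 67 in D2-13B6 against B6, and regions 29.9 to 39.3 kb downstream of the start site were higher in D2-13B6 while the first intron was lower. In D2-13B6 against B6, 9 of the 11 regions were called (81.8%, against 41.7% of all regions), 6 higher and 3 lower. The median log2 fold change was 0.48. Total counts gave 3 higher and 5 lower, so the majority direction in this window rests on the scaling. In D2 against D2-13B6, 6 were called (54.5%, against 23.7% of all regions), 2 higher and 4 lower in D2. In 10 of the 11 regions (90.9%, against 56.5% of all regions), the D2 mean lay between those of B6 and D2-13B6.

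The promoter region of Fgf5 (98253647 to 98255100, with coding sequence of the first exon) had 7.68, 7.07 and 8.10 normalised CPM in B6, 7.50 and 7.57 in B6-13D2, 11.1, 13.2 and 8.70 in D2-13B6 and 9.86, 7.63 and 10.2 in D2. The D2-13B6 libraries all lay above the B6 libraries, with replicate 3 close to them, and the D2 libraries overlapped both. The log2 fold change of D2-13B6 against B6 was 0.53 (SE 0.17, edgeR adjusted p = 0.0107). This call was lost with total counts (0.21, adjusted p = 0.213), without B6 replicate 2 (adjusted p = 0.0527) and without D2-13B6 replicate 2 (adjusted p = 0.0663). Over 15642 promoter regions of protein-coding genes, the median in the same comparison was 0.60.

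The first intron of Fgf5 held the most accessible of the 67 regions per length, with 12.5 normalised CPM per kb over all libraries (98255447 to 98256542). It had 16.4, 16.9 and 19.5 normalised CPM in B6, 17.1 and 19 in B6-13D2, 7.27, 9.39 and 5.40 in D2-13B6 and 13.3, 11.7 and 14.8 in D2. The D2-13B6 libraries lay below all others, and the D2 libraries lay between them and those of B6. In D2-13B6 against B6 the region fell by 1.25 on the log2 scale (SE 0.18, edgeR adjusted p = 1.31e-08), and in D2 against D2-13B6 it was higher by 0.85 (SE 0.17, edgeR adjusted p = 0.000105). The promoter region next to it thus moved the other way in D2-13B6 against B6.

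The intergenic region 36.6 kb downstream of the Fgf5 start site (98290535 to 98291021), whose sequence with the TCF/LEF and OTX matches is printed above, gave the smallest p-value of the 67. It had 1.46, 1.4 and 1.71 normalised CPM in B6, 1.68 and 1.15 in B6-13D2, 8.99, 11 and 8.46 in D2-13B6 and 3.66, 3.99 and 4.30 in D2. Both lines with C57BL/6J background were at a similar low level, D2 was above both with no overlap, and D2-13B6 was above D2 with no overlap. The region was 6.20-fold higher in D2-13B6 than in B6 (a log2 fold change of 2.63, SE 0.21, edgeR adjusted p = 7.39e-17). D2 was higher than B6 by 1.38 (SE 0.22, edgeR adjusted p = 1.30e-06) and lower than D2-13B6 by 1.25, a log2 fold change of -1.25 (SE 0.18, edgeR adjusted p = 1.73e-07). D2 was also higher than B6-13D2, by 1.48 (SE 0.26, edgeR adjusted p = 1.07e-05). All 17 alternative settings kept each of these 4 calls.

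Neighbouring regions of the same stretch, chosen here after their values were seen, had the same order of line means. The region at 29.9 kb (98283752 to 98284405) had 2.10 to 2.99 normalised CPM in B6, 1.55 and 2.59 in B6-13D2, 3.84 to 4.12 in D2 and 6.91 to 9.39 in D2-13B6. Its log2 fold change was 1.63 in D2-13B6 against B6 (SE 0.20, edgeR adjusted p = 3.65e-10) and 0.61 in D2 against B6 (SE 0.21, edgeR adjusted p = 0.0242). The region at 37.1 kb (98291220 to 98291418), 198 bp wide and with as few as 4 counts in a library, had log2 fold changes of 2.23 (SE 0.35) and 1.17 (SE 0.37) in the same comparisons. The region at 39.3 kb (98293024 to 98293848) was higher in D2-13B6 than in B6 by 0.75 (SE 0.22, edgeR adjusted p = 0.00428), although its libraries overlapped. Farther out, the regions at 48.6 and 56.3 kb were lower in D2-13B6 than in B6, with log2 fold changes of -1.09 and -0.80. The promoter region of Cfap299 at the far end of the window was higher by 0.48 (edgeR adjusted p = 0.0248), with overlapping libraries.

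**Figure D2:**
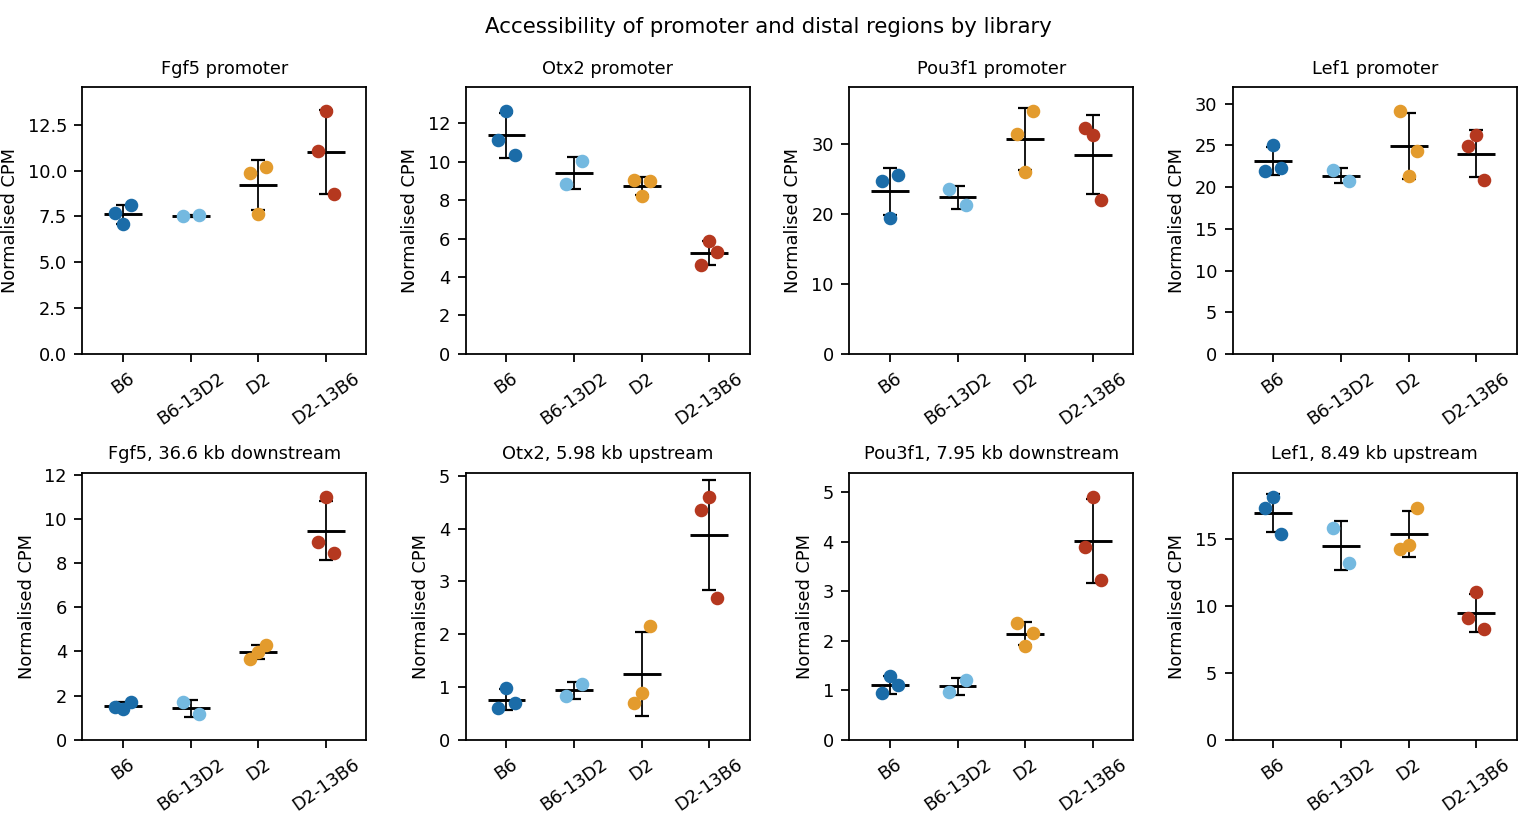
Normalised CPM of the promoter region nearest each gene's start site (top) and of the printed distal region at each locus (bottom), 1 point per library, with the mean (line) and SD (bar) of each line. D2-13B6 is highest at the distal regions of Fgf5, Otx2 and Pou3f1 and lowest at the distal region of Lef1 and the promoter of Otx2, while the D2-13B6 points overlap those of B6 at the Pou3f1 and Lef1 promoters.

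Otx2 (ENSMUSG00000021848.16) lies on the minus strand of chromosome 14 from 48657677 to 48673819, and the antisense gene Otx2os1 runs upstream of it through most of the window. Accessibility through this window was lower in D2-13B6. Of the 15 regions, 12 were called in D2-13B6 against B6 (80%, against 41.7% of all regions), 11 lower and 1 higher. The median log2 fold change was -0.67. Total counts gave the same split, and RLE size factors gave 8 lower and 1 higher, with a median of -0.60. D2 against D2-13B6 called 5 (33.3%, against 23.7% of all regions), 4 higher and 1 lower in D2. D2 against B6 called 4 (26.7%, against 22.5%), all lower in D2. D2 against B6-13D2 called 3 (20%, against 18.8%), all lower. The shares called in D2 against B6 and D2 against B6-13D2 were near those of all regions, of which 8.8% and 7.24% were called lower.

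Otx2 has several annotated start sites, and 3 regions lie within 1000 bp of them. The region over the most upstream start (48673380 to 48675182), which also covers starts of Otx2os1 and Gm49154, had 11.1, 12.6 and 10.3 normalised CPM in B6, 8.82 and 10.02 in B6-13D2, 4.62, 5.88 and 5.30 in D2-13B6 and 9.03, 8.22 and 8.97 in D2. The D2-13B6 values lay below all others. Its log2 fold change was -1.11 in D2-13B6 against B6 (SE 0.17, edgeR adjusted p = 1.53e-07) and 0.73 in D2 against D2-13B6 (SE 0.17, edgeR adjusted p = 0.000559). The promoter region 7.9 kb into the gene (48664680 to 48667151) had 10.6 to 12.3 normalised CPM in B6, 11.6 and 10.8 in B6-13D2, 6.73 to 7.77 in D2-13B6 and 7.76 to 9.62 in D2, and was lower in D2-13B6 than in B6 by a log2 fold change of -0.67 (SE 0.17, edgeR adjusted p = 0.000790). The third (48661890 to 48663735, with coding sequence) had a log2 fold change of -0.53 in the same comparison (edgeR adjusted p = 0.0318). That last call was lost in 7 of 17 alternatives, among them those without B6 replicate 1, B6 replicate 2, D2-13B6 replicate 2 or D2-13B6 replicate 3, with adjusted p up to 0.142. In D2 against B6-13D2 the same region was lower by 0.79, a log2 fold change of -0.79 (edgeR adjusted p = 0.00735), and without B6-13D2 replicate 1 the adjusted p was 0.189.

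Upstream of Otx2, the exon of Otx2os1 27.4 kb away (48700333 to 48702120) had 12.9, 16.2 and 13.2 normalised CPM in B6, 16.4 and 15.2 in B6-13D2, 5.22, 6.24 and 5.61 in D2-13B6 and 9.70, 9.91 and 8.62 in D2. Both DBA/2J-background lines lay below both C57BL/6J-background lines, and D2-13B6 below D2, with no overlap. The log2 fold change was -1.30 in D2-13B6 against B6 (SE 0.17, edgeR adjusted p = 1.58e-09) and -0.58 in D2 against B6 (SE 0.17, edgeR adjusted p = 0.00646). Without B6 replicate 2 the latter had an adjusted p of 0.0745. D2 was higher than D2-13B6 by 0.73 (edgeR adjusted p = 0.000581) and lower than B6-13D2 by a log2 fold change of -0.75 (edgeR adjusted p = 0.00160, and 0.0507 without B6-13D2 replicate 1).

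A second pattern, at the regions 42.9 to 49.2 kb upstream, was a similar level in D2 and D2-13B6. The exon region of Otx2os1 at 44.2 kb (48717556 to 48718403) had 2.36 to 2.89 normalised CPM in B6, 2.23 and 1.74 in B6-13D2, 0.779 to 1.51 in D2-13B6 and 1.17 to 1.63 in D2. It was lower in D2-13B6 than in B6 by a log2 fold change of -1.20 (SE 0.27, edgeR adjusted p = 0.000133) and in D2 than in B6 by -0.98 (SE 0.26, edgeR adjusted p = 0.00293), while D2 and D2-13B6 overlapped. The intron region at 36.0 kb (48709250 to 48710327) differed from this, since D2 with 6.83 to 10.3 normalised CPM overlapped B6 with 7.84 to 8.48, and D2-13B6 was lower with 4.57 to 5.82 (log2 fold change -0.64 against B6, edgeR adjusted p = 0.00246). The farthest upstream region, at 56.3 kb, also differed from it. D2 with 1.74 to 2.09 normalised CPM lay within the range of B6, 1.49 to 2.40, and above D2-13B6 with 1.09 to 1.58.

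The single Otx2 region called higher in D2-13B6 than in B6 is the printed one in an intron of Otx2os1, 5.98 kb upstream (48679659 to 48679944). It had 0.599, 0.976 and 0.70 normalised CPM in B6, 0.819 and 1.05 in B6-13D2, 4.36, 4.61 and 2.68 in D2-13B6 and 0.70, 0.884 and 2.15 in D2. The D2-13B6 libraries lay above all others, and D2 replicate 3 stood above the other two D2 libraries. The region was 5.30-fold higher in D2-13B6 than in B6 (a log2 fold change of 2.41, SE 0.31, edgeR adjusted p = 9.43e-10), and D2 was lower than D2-13B6 with a log2 fold change of -1.66 (SE 0.27, edgeR adjusted p = 1.48e-06). Without D2 replicate 3 the latter was -2.30. On the other side of the gene, the widest region of the 67 (48651284 to 48656365, 5081 bp, over the small nuclear RNA gene Gm23469) had 15.9 to 19.6 normalised CPM in D2-13B6 and 22 to 25.1 in B6. Its log2 fold change of -0.42 (edgeR adjusted p = 0.0348) was lost in 6 of 17 alternatives, among them those without any one of the 3 B6 libraries or D2-13B6 replicate 1, with adjusted p up to 0.198. D2 was higher than D2-13B6 there by 0.53 (edgeR adjusted p = 0.0106), a call lost in 4 of 17 alternatives, 2 of them without D2-13B6 replicate 1 or D2 replicate 1 (adjusted p up to 0.0916 over the alternatives).

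**Figure D3:**
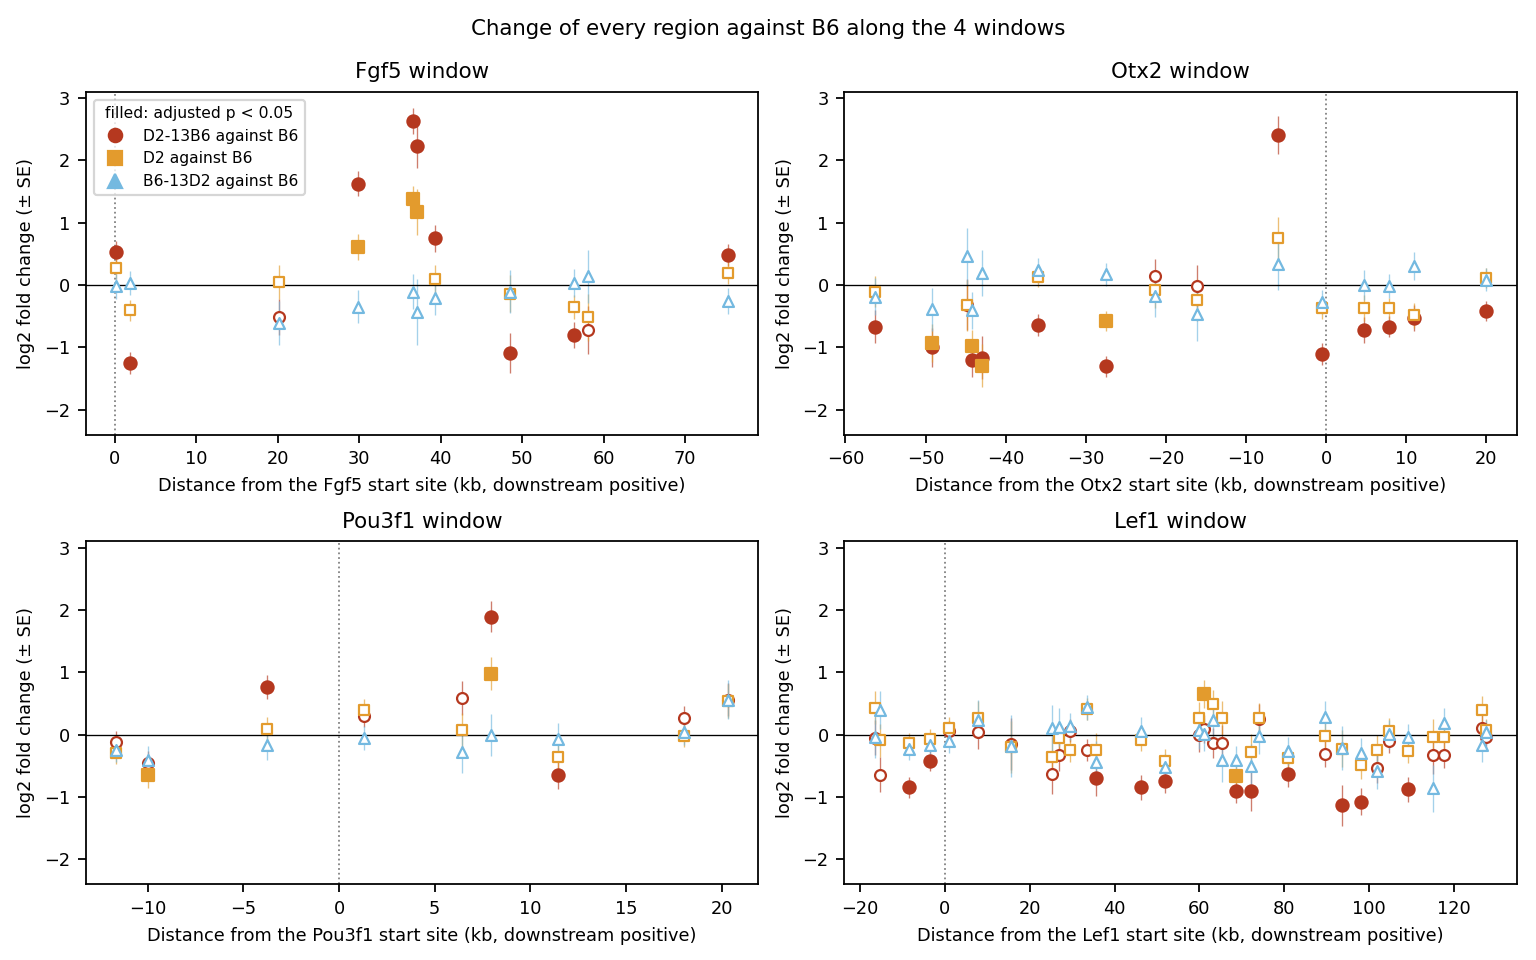
Log2 fold change against B6 (points, with SE) of every region in the 4 windows, by distance of its centre from the gene's start site in kb. Circles are D2-13B6, squares D2 and triangles B6-13D2, filled where the adjusted p is under 0.05. No triangle is filled, and in the Otx2 window 11 filled circles lie below 0 and 1 above.

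Pou3f1 (ENSMUSG00000090125.3) lies on the plus strand of chromosome 4 from 124656807 to 124660655 and has a single coding exon. In D2-13B6 against B6, 3 of its 9 regions were called (33.3%, against 41.7% of all regions), 2 higher and 1 lower. In D2 against D2-13B6, 2 were called (22.2%, against 23.7% of all regions), both lower in D2. Both shares are near those of all regions. Total counts gave 2 higher and 3 lower in D2-13B6 against B6. The region over the promoter and the gene (124656467 to 124659761, 8.08 normalised CPM per kb) was the most accessible promoter of the 4 genes per length. It had 24.8, 19.4 and 25.7 normalised CPM in B6, 23.6 and 21.3 in B6-13D2, 32.3, 31.4 and 22 in D2-13B6 and 31.5, 26 and 34.8 in D2. D2 lay just above B6, D2-13B6 overlapped B6 through its replicate 3, and the region was called in none of the 6 comparisons.

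The printed region 7.95 kb downstream of the Pou3f1 start (124664618 to 124664893, 275 bp) had 0.931, 1.28 and 1.09 normalised CPM in B6, 0.955 and 1.2 in B6-13D2, 3.90, 4.91 and 3.23 in D2-13B6 and 2.36, 1.90 and 2.15 in D2. As at the Fgf5 region 36.6 kb downstream, B6 and B6-13D2 were at a similar low level, D2 was higher with no overlap, and D2-13B6 higher again. The log2 fold change was 1.89 in D2-13B6 against B6 (SE 0.25, edgeR adjusted p = 2.43e-09), 0.98 in D2 against B6 (SE 0.26, edgeR adjusted p = 0.00315) and -0.91 in D2 against D2-13B6 (SE 0.22, edgeR adjusted p = 0.000857). In D2 against B6-13D2 it was 0.99 (SE 0.30, edgeR adjusted p = 0.0131), and this call was lost without B6-13D2 replicate 1 (adjusted p = 0.181), B6-13D2 replicate 2 (adjusted p = 0.0533) or D2 replicate 1 (adjusted p = 0.0511).

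The other regions of this window changed less than the printed one. The region 3.75 kb upstream (124652710 to 124653411) is given here after its values were seen. It had 2.76 to 4.09 normalised CPM in B6, 5.30 to 6.49 in D2-13B6 and 3.58 to 4.10 in D2. The intron region of Gm2164 10 kb upstream (124646488 to 124647126) had 5.34 to 7.32 normalised CPM in B6 and 3.01 to 4.25 in D2, with a log2 fold change of -0.65 in D2 against B6 (SE 0.20, edgeR adjusted p = 0.00923). Without B6 replicate 2 the adjusted p was 0.0989 and without D2 replicate 3 it was 0.0862. The region 11.4 kb downstream (124667939 to 124668531) was lower in D2-13B6 (1.61 to 2.72 normalised CPM) than in B6 (3.05 to 4.16), with a log2 fold change of -0.65 (edgeR adjusted p = 0.0148). That call was lost without B6 replicate 3 (adjusted p = 0.112) or D2-13B6 replicate 2 (adjusted p = 0.109). The region with the highest level away from the promoter (124674133 to 124675517) had 5.23 to 9.45 normalised CPM over the 11 libraries and was called in no comparison.

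Lef1 (ENSMUSG00000027985.14) lies on the plus strand of chromosome 3 from 131110471 to 131224356. Its promoter did not change beyond the spread of the libraries, while some regions upstream and in its introns were lower in D2-13B6. Of the 32 regions, 11 were called in D2-13B6 against B6 (34.4%, against 41.7% of all regions), all lower in D2-13B6. Total counts gave 18 and RLE size factors 9, all lower. In D2 against D2-13B6, 8 were called (25%, against 23.7% of all regions), all higher in D2. There total counts gave 10 and RLE size factors 5, all higher. Over all regions, 20.1% were called lower in the former comparison and 8.53% higher in the latter. Only 2 were called in D2 against B6 (6.25%, against 22.5% of all regions), in opposite directions. None was called in D2 against B6-13D2, where the share over all regions was 18.8%. The promoter region (131109588 to 131113343, shared with Gm43352) had 21.9, 25.0 and 22.3 normalised CPM in B6, 22 and 20.7 in B6-13D2, 24.9, 26.3 and 20.8 in D2-13B6 and 29.1, 21.3 and 24.3 in D2, with every line overlapping the others and no call in the 6 comparisons.

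The printed region 8.49 kb upstream of Lef1 (131100931 to 131103029) had 17.3, 18.2 and 15.4 normalised CPM in B6, 15.8 and 13.2 in B6-13D2, 9.07, 11.1 and 8.25 in D2-13B6 and 14.3, 14.6 and 17.4 in D2. The D2-13B6 libraries lay below all others, and the other 3 lines overlapped. Its log2 fold change was -0.84 in D2-13B6 against B6 (SE 0.17, edgeR adjusted p = 3.12e-05) and 0.70 in D2 against D2-13B6 (SE 0.17, edgeR adjusted p = 0.000793). Within the gene, the intron region at 68.7 kb (131178602 to 131179718) had 5.36, 5.61 and 6.26 normalised CPM in B6, 3.96 and 4.73 in B6-13D2, 3.27, 2.76 and 3.20 in D2-13B6 and 3.94, 3.05 and 3.84 in D2. Both DBA/2J-background lines were below B6 here, with log2 fold changes of -0.90 for D2-13B6 (SE 0.19, edgeR adjusted p = 9.92e-05) and -0.67 for D2 (SE 0.19, edgeR adjusted p = 0.00631, and 0.0865 without D2 replicate 2). The B6-13D2 libraries, of C57BL/6J background, also lay below all B6 libraries, without a call in B6-13D2 against B6.

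The intron region at 61.0 kb (131170804 to 131172118) was the single Lef1 region called higher in D2 than in B6. It had 1.71 to 3.46 normalised CPM in B6 and 4.04 to 4.30 in D2, a log2 fold change of 0.65 (SE 0.22, edgeR adjusted p = 0.0221). That call was lost in 5 of 17 alternatives, with total counts and without B6 replicate 2, B6 replicate 3, D2 replicate 1 or D2 replicate 3 (adjusted p up to 0.185). D2 was also above D2-13B6 by 0.57 (edgeR adjusted p = 0.0401), a call lost in 7 of 17, among them those without D2-13B6 replicate 1, D2-13B6 replicate 2, D2 replicate 1 or D2 replicate 3 (adjusted p up to 0.171). The region 3.58 kb upstream (131105547 to 131108225) had 12.1 to 14.1 normalised CPM in D2-13B6 and 14.6 to 20.2 in B6. Its log2 fold change of -0.42 (edgeR adjusted p = 0.0356) was lost in 6 of 17 alternatives, among them those without B6 replicate 1, B6 replicate 3 or D2-13B6 replicate 1 (adjusted p up to 0.266).

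Summed over each window, the Otx2 and Lef1 windows were lowest in D2-13B6. In B6 the Otx2 sum was 88.2 ± 4.78 normalised CPM (SD, n = 3). In B6-13D2 it was 90.7 ± 2.46 (SD, n = 2), in D2 75.8 ± 3.45 (SD, n = 3) and in D2-13B6 57.0 ± 2.86 (SD, n = 3). The Lef1 sum was 151 ± 5.04, 143 ± 6.25, 149 ± 9.05 and 119 ± 3.01 in the same order. D2-13B6 did not overlap B6 or D2 in either window. The Fgf5 sum was 52.1 ± 3.07, 49.0 ± 0.872, 54.2 ± 3.76 and 63.0 ± 14.7, and the Pou3f1 sum 53.8 ± 1.72, 50.3 ± 2.20, 58.7 ± 1.74 and 63.6 ± 8.50, with D2-13B6 replicate 3 within the range of the other lines. With total counts, the sign of D2-13B6 minus B6 reversed for Fgf5 (-1.68) and Pou3f1 (-2.56). For 6 of the 20 comparisons of sums, the two-sided exact permutation p was 0.1, the smallest that 3 libraries against 3 allow, and no adjusted p was below 0.333.

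**Figure D4:**
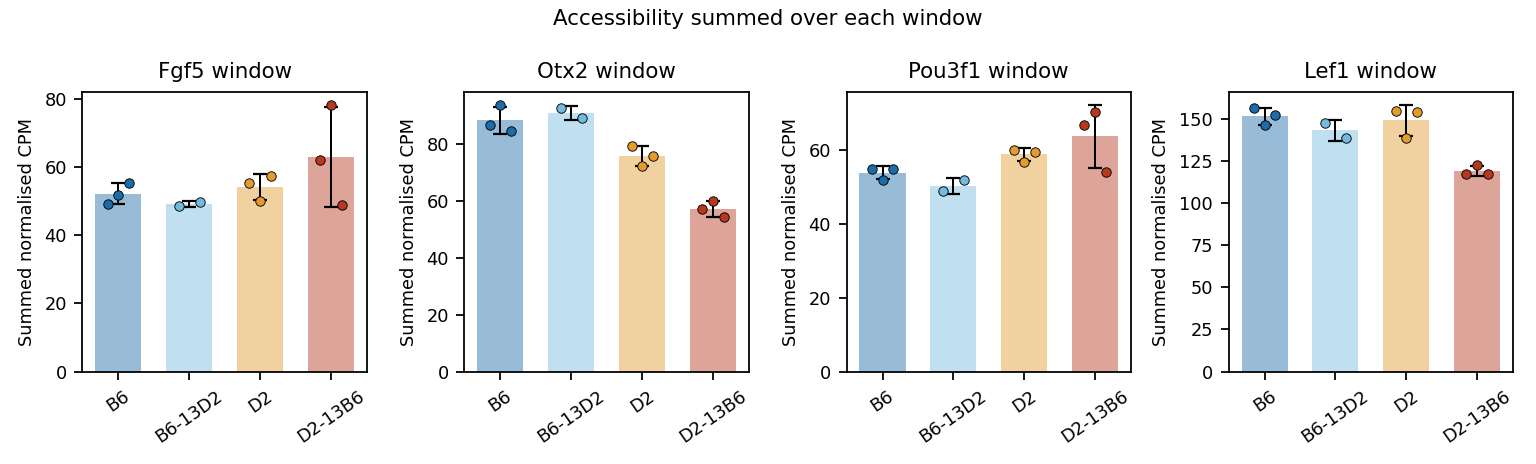
Normalised CPM summed over the regions of each window, with 1 point per library, the mean as a bar and the SD as an error bar. The D2-13B6 bars are lowest for Otx2 (57.0) and Lef1 (119), and the 3 D2-13B6 points are spread widest for Fgf5.

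The interaction asked whether the difference that goes with a DBA/2J interval differs between the backgrounds, as B6-13D2 against B6 minus D2 against D2-13B6. It was called in 5 of the 67 regions, 2 positive and 3 negative, against 6.54% of all regions (4.55% positive, 1.99% negative), and total counts gave 1 positive and 10 negative. The 5 are the printed regions of Fgf5 (1.15), Otx2 (2.00) and Lef1 (-0.92), the first intron of Fgf5 (-0.81) and the upstream Otx2 promoter (-1.0). In each, D2 against D2-13B6, a term of the interaction itself, was called. B6-13D2 against B6 was called in none of the 67, so this adds nothing to the interaction calls. The calls of both Otx2 regions were lost without a single B6-13D2 library (replicate 1 for the promoter, adjusted p = 0.0940, and replicate 2 for the printed region, adjusted p = 0.0978). That of Lef1 was lost without B6 replicate 1 (adjusted p = 0.0519), B6-13D2 replicate 2 (0.161) or D2 replicate 3 (0.0592). The printed Fgf5 region lost its call in 6 of 16 alternatives, with total counts and without B6 replicate 1 or 2, B6-13D2 replicate 1, D2-13B6 replicate 2 or D2 replicate 1 (adjusted p up to 0.326). The first intron of Fgf5 lost it in 10 of 16, including those without any B6 or B6-13D2 library (up to 0.209). The 2 congenic strain names start at different proximal markers and the distal marker of D2-13B6 is not settled, so interval extent, background and line cannot be told apart in this comparison. At Pou3f1 none was called, and the region 7.95 kb downstream had an adjusted p of 0.178.

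The levels of promoter regions can be compared between the genes per length. Over the 11 libraries they were 8.08 normalised CPM per kb for Pou3f1, 6.26 for Lef1, 6.17 for Fgf5 and 4.79 for the upstream Otx2 promoter. The range over the 67 regions was 1.64 to 12.5 normalised CPM per kb with a median of 3.98, against a median of 3.345 over all regions. Over the 11 libraries, which share 4 lines, the promoter region of another protein-coding gene with the most similar log2 CPM was that of Fam84a for Fgf5 (Pearson's r 0.990), Cdkal1 for Pou3f1 (0.988), Prss21 for the Otx2 promoter 7.9 kb into the gene (0.983) and Tspan6 for Lef1 (0.930). The next were Steap1 and Pax9 for Fgf5 (both 0.983), the region shared by Aimp1 and Tbck and that of Slc2a13 for Pou3f1 (both 0.980), Ggt1 (0.977) and Ano9 (0.971) for Otx2, and Ablim3 (0.922) and Dgkb (0.886) for Lef1. These are the highest of 27641 candidate regions, and the r values are descriptions only.

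Promoter regions of related genes were examined in 3 lists. Protein-coding genes had 15642 such regions, counted once where genes share a region. Of these, 69.7% were called in D2-13B6 against B6 (60.5% higher, 9.17% lower, median log2 fold change 0.60). In D2 against B6, 45.3% were called (42.6% higher, 2.72% lower, median 0.39). Against that shift, 8 of 24 other formative and primed genes were called in D2-13B6 against B6, 4 higher and 4 lower, with a median of -0.05. The ETS factor gene Etv5 (0.91, SE 0.17, edgeR adjusted p = 7.66e-06) and Sox11 (0.79, edgeR adjusted p = 5.64e-05) were higher. The homeobox gene Nkx1-2 (-1.04, edgeR adjusted p = 4.79e-07) and Lin28a, which encodes an RNA-binding protein (-0.84, edgeR adjusted p = 2.19e-05), were lower. In D2 against B6, 7 of the 24 were called, 5 higher and 2 lower, and in B6-13D2 against B6 none was, where 0.102% of protein-coding promoters were.

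Of 16 genes of the WNT and TCF/LEF pathway, 12 were called in D2-13B6 against B6 (75%, against 69.7% of protein-coding promoters), 10 higher and 2 lower. The median of the 16, 0.45, lay below the 0.60 of all protein-coding promoters, of which 60.5% were called higher, so the list did not stand above the other promoters. The called genes included both GSK3 genes, Gsk3a (1.06, edgeR adjusted p = 5.56e-07) and Gsk3b (1.01, edgeR adjusted p = 1.49e-06), and Apc, a scaffold of the beta-catenin destruction complex (1.03, edgeR adjusted p = 4.59e-07), whereas the promoter of Cdx1, a WNT target gene, was lower (-1.12, edgeR adjusted p = 4.13e-08). In D2 against B6, 7 were called (43.8%, against 45.3% of protein-coding promoters), all higher. All 12 naive pluripotency genes were called in D2-13B6 against B6, 4 higher and 8 lower, with a median of -0.52. The nuclear receptor gene Esrrb (-1.32, edgeR adjusted p = 5.69e-10), Tcl1 (-1.32, edgeR adjusted p = 2.03e-09), Prdm14 (-0.89, edgeR adjusted p = 6.03e-06) and Nanog (-0.88, edgeR adjusted p = 8.58e-06) were lower. The 4 called higher, named after their values were seen, were the transcription factor genes Klf4 (0.80, edgeR adjusted p = 4.98e-05), Tbx3 (0.76, edgeR adjusted p = 0.000207), Klf5 (0.53, edgeR adjusted p = 0.0122) and Klf2 (0.42, edgeR adjusted p = 0.0407). In D2 against D2-13B6, where 22.5% of protein-coding promoters were called (5.55% higher, 16.9% lower), 6 of the 12 were called, all higher in D2, with 5 of the 24 formative and primed genes (4 higher) and 3 of the 16 WNT genes (1 higher). In D2 against B6-13D2, where 36.2% of protein-coding promoters were called, the lists had 4, 6 and 4 calls in the order naive, formative and WNT. The interaction, with 2.67% of protein-coding promoters called, was called for Esrrb (-0.87) and Cdx1 (-0.96) alone in these lists.

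**Figure D5:**
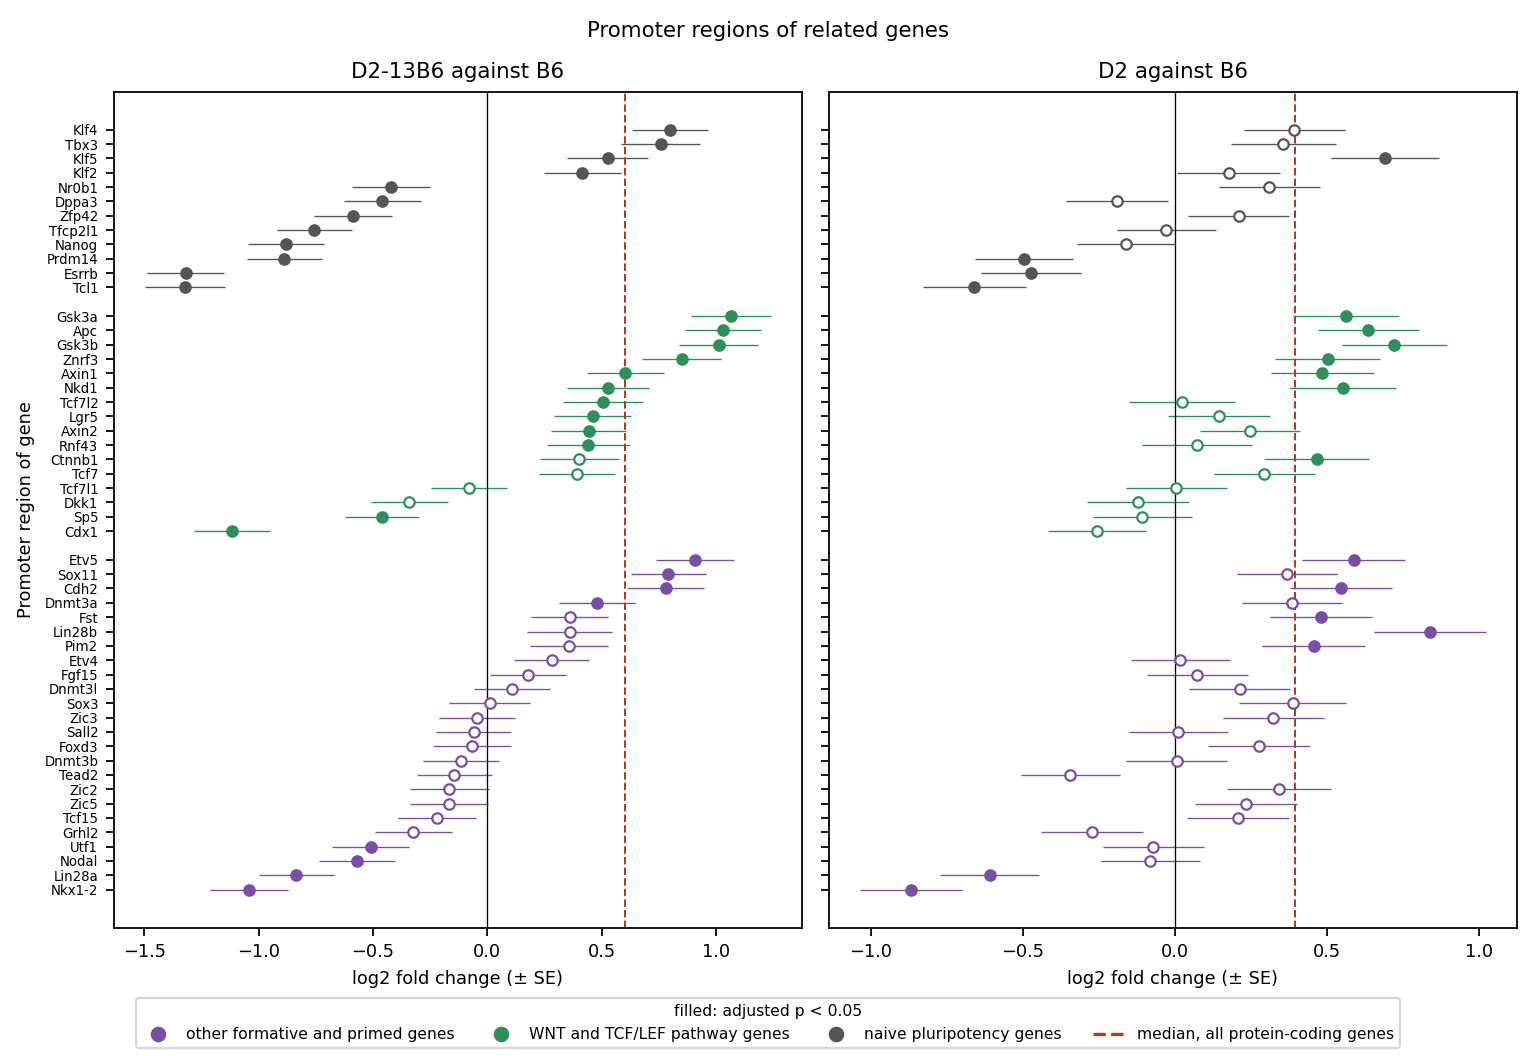
Log2 fold change with SE of the promoter region of each gene in the 3 lists, for D2-13B6 against B6 (left) and D2 against B6 (right), filled where the adjusted p is under 0.05. The dashed line is the median over promoter regions of protein-coding genes (0.60 and 0.39), and 8 of the 12 naive genes lie below 0 on the left.

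Promoters of cell type markers also differed in D2-13B6. The summed promoter accessibility of 8 pluripotency markers, all with a region, was 302 to 305 normalised CPM in B6, 288 to 310 in B6-13D2, 276 to 308 in D2 and 195 to 227 in D2-13B6. That of 8 fibroblast markers, of which 6 had a region and Col3a1 and Lum had none, was 50.4 to 56.1, 43.9 to 50.3, 66.9 to 68.7 and 91.0 to 121 in the same order. For 6 primitive endoderm markers it was 102 to 112, 95.8 to 107, 111 to 125 and 122 to 170. No marker with a region was at 0 in a line. In D2-13B6 against B6, where the median of all protein-coding promoters was 0.60, 7 of the 8 pluripotency markers were called, 6 lower and Klf4 higher, with a median of -0.79. Of the 6 fibroblast markers 3 were called, all higher, with a median of 0.76, which is near that of all promoters. The endoderm markers had a median of 0.20 and went both ways. Among them Dab2 (1.68), Gata6 (0.65) and Pdgfra (0.52) were called higher and Sox17 (-0.43) lower, whereas Gata4 (-0.19) and Sox7 (-0.12) were not called. These endoderm markers were named after their values were seen. The share of counts in all promoter regions was 38.9% ± 0.573 for B6 (SD, n = 3), 38.9% ± 0.0583 for B6-13D2 (SD, n = 2), 43.7% ± 1.34 for D2 (SD, n = 3) and 44.0% ± 2.51 for D2-13B6 (SD, n = 3). The part of these differences in the results for the 67 regions was not tested.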

How the data were processed

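The authors deposited 1 table of whole-number counts per region for 11 libraries of 4 cell lines, without normalization. Per the file headers, duplicates and mitochondrial reads had been removed. Per the submitters' processing notes, the tools were Trimmomatic 0.39, BWA 0.7.5, Picard 2.0.1, MACS 1.4.2, bedtools 2.9.2 and edgeR 3.34.1, with build mm10. Whether reads or fragments were counted, and whether ends were shifted for the transposase, is not given in the sources used here. DBA/2J reads were mapped to mm10, a C57BL/6J genome; the effect on counts was not tested.

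Here, edgeR 4.0.16 (TMM, filterByExpr, robust quasi-likelihood fit of all 11 libraries, a coefficient per group, Benjamini-Hochberg over 246840 regions) gave the main tests, and DESeq2 1.42.0 an alternative. SEs came from the F statistic. The code was tested on simulated data. Genes are GENCODE M21 on GRCm38, and a promoter region lies within 1000 bp of a start site. Regions named are the genes' promoter regions, the highest other region per window and, per comparison, the called region with the smallest p in each direction. Members and gene lists were chosen with earlier results of these data known. Depth was 15198496 to 43042955 counts per library.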

Additional observations from a re-analysis of the deposited data

Results flagged for a closer look

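These 5 regions were singled out by the interaction test itself (edgeR, adjusted p under 0.05). In them, the difference that goes with a DBA/2J interval differed between the backgrounds. The interaction log2 fold change was 1.15 for the Fgf5 region 36.6 kb downstream (SE 0.34, edgeR adjusted p = 0.0291) and -0.81 for the first intron of Fgf5 (SE 0.26, edgeR adjusted p = 0.0464). It was 2.00 for the Otx2 region 5.98 kb upstream (SE 0.50, edgeR adjusted p = 0.00909) and -1.0 for the upstream Otx2 promoter (SE 0.26, edgeR adjusted p = 0.0110). It was -0.92 for the Lef1 region 8.49 kb upstream (SE 0.25, edgeR adjusted p = 0.0176). The 5 regions are 7.46% of the 67, where 6.54% of all regions were called, a share near that background. The 2 congenic strain names start at different proximal markers, the distal marker of D2-13B6 is not settled and each genotype is 1 line, so the extent of the interval, the background and the line cannot be told apart.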

How the results depend on the processing

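Among named regions, 639 alternative values kept direction and call, 70 lost the call and none reversed. Of the counts over all regions, B6-13D2 against B6 gave 2875 when only its own libraries were fitted. Leaving out single libraries gave 460 to 1591 regions there, 24644 to 54244 for D2 against B6-13D2 and 4743 to 29017 for the interaction. Where this left B6-13D2 with 1 library, that library is assumed to vary like the other groups.

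Among the 67 regions, fits of only the libraries compared gave 19 calls for D2 against B6 and 11 for D2 against B6-13D2, and total counts gave 11 for the interaction. Leaving out 1 library gave 7 to 17 calls for D2 against B6 (7 without B6 replicate 2 or 3, 17 without D2-13B6 replicate 2) and 1 to 11 for D2 against B6-13D2 (1 without B6-13D2 replicate 1, 11 without D2-13B6 replicate 2 or 3). For the interaction it gave 2 to 9, with 2 without B6 replicate 1, B6-13D2 replicate 1 or B6-13D2 replicate 2, 3 without B6 replicate 2, D2 replicate 1 or D2 replicate 3, and 9 without D2-13B6 replicate 3. For D2 against D2-13B6 the range was 15 to 22 and for D2-13B6 against B6 27 to 36.

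With total counts, window sums reversed for D2 minus B6 at Fgf5 (-2.66) and Pou3f1 (-0.0569), for D2-13B6 minus B6 at Fgf5 (-1.68) and Pou3f1 (-2.56), for D2 minus D2-13B6 at Pou3f1 (2.50) and for D2 minus B6-13D2 at Lef1 (-7.21). At Lef1, D2 minus B6 ran from -5.38 to 9.76 when 1 library was left out, the highest without D2 replicate 2. The cause was not tested.

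The replicate numbers do not pair the libraries. Deviations of same-numbered libraries had correlations of -0.0486 to 0.0683 over 15 pairs, and 4 of 11 libraries correlated best with their own number. With the replicate block, the 67 regions gave 36 calls for D2-13B6 against B6, 21 for D2 against D2-13B6, 11 for D2 against B6, 7 for D2 against B6-13D2, 5 for the interaction and 0 for B6-13D2 against B6. Over all regions the block gave 104114, 60628, 57439, 49985, 14154 and 1221. Depth limits the smallest regions, down to 4 counts in a library.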
